A study of Mus musculus with 6 samples.

Results

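Genes of cholesterol and lipid synthesis under SREBP were followed in mouse leukemias driven by MLL-ENL, with Runx1 deleted or intact. The set held 38 genes: 18 enzymes of sterol synthesis, 5 regulators of SREBP, 4 genes of cholesterol transport and storage, 5 LXR receptors and targets, and 6 enzymes of fatty acid synthesis. Each gene was read from 1 probe set, chosen by its measured values as the one with the highest mean log2 level over all 6 arrays. By this rule 35 of the 38 were measured, among 18194 genes in all, and Acat2, Soat1 and Nr1h2 had no probe set named here. The genes were also picked with earlier results of the same comparison known, so every difference, count and p-value given for them is a description and supports nothing further.

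Bone marrow cells of C57BL/6 mice, with Runx1 either intact (Control) or excised (Runx1-KO), had been given the MLL-ENL fusion oncogene by transduction and put into congenic recipients. Leukemic cells were taken when the recipients were moribund, and each group held 3 independent leukemias, hybridised to 1 Affymetrix mouse array each. All 6 leukemias therefore carried MLL-ENL, and Control differed from Runx1-KO by its intact Runx1. How Runx1 was excised, the age and sex of the mice and the purity of the harvested cells are not given in the sources used here.

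SREBP proteins are transcription factors held in the endoplasmic reticulum by Scap and the Insig proteins while membranes hold enough sterol. When sterol falls, Scap carries SREBP to the Golgi, proteases free its active part, and this part raises genes of cholesterol synthesis (mainly through SREBP-2, made by Srebf2) and of fatty acid synthesis (mainly through SREBP-1c, made by Srebf1). LXR receptors answer the opposite state, an excess of oxidised sterols, by raising cholesterol exporters, and dividing blood cells draw on sterol synthesis for new membrane.

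At known SREBP target promoters, SREBP binds a short sterol element beside sites for NF-Y and Sp1. Promoters of 5 sterol enzymes are shown because these genes sit at different steps of the pathway and because all 5 had lower mean levels in the Runx1-KO arrays. They also do not all hold the same sites. Picked in this way, they cannot show whether the sites go with lower levels. Each is the 250 bases before the transcription start, 5′ to 3′ on the strand of the gene, from RefSeq on GRCm38.p6. Capitals mark TCACNCCAC (sterol element), CCAAT (NF-Y box) and GGGCGG (GC box, read by Sp1) on either strand, and no marked site overlaps another. The windows are Hmgcs1 at chr13:119690101-119690350, plus strand, Idi1 at chr13:8885356-8885605, plus strand, Cyp51 at chr5:4104698-4104947, minus strand, Nsdhl at chrX:72918271-72918520, plus strand, and Ebp at chrX:8193513-8193762, minus strand.
Hmgcs1: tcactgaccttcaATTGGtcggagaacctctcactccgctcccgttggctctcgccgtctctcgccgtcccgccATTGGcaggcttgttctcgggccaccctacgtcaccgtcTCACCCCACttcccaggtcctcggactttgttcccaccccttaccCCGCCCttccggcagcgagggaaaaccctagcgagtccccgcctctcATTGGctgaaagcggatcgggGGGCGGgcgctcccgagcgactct
Idi1: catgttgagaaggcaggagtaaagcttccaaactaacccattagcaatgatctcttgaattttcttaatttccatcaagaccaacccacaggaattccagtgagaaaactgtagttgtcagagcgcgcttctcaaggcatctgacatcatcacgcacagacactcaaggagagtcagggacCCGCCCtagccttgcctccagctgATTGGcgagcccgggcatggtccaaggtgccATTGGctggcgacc
Cyp51: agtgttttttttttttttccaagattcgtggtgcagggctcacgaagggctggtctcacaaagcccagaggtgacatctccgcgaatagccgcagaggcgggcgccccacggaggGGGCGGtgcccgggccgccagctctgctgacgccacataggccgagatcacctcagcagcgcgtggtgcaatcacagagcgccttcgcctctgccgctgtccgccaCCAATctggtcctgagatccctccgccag
Nsdhl: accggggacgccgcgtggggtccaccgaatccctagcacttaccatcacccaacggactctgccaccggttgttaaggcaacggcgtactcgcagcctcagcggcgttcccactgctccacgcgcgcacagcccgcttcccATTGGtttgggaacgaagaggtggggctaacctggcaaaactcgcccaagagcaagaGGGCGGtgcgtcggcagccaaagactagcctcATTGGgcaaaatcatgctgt
Ebp: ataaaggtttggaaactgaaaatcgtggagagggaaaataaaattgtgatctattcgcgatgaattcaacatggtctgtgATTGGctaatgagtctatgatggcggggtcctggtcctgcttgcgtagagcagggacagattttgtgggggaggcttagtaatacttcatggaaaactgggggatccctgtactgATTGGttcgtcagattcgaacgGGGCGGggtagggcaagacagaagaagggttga

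The Hmgcs1 window held 3 NF-Y boxes, 2 GC boxes and the 1 sterol element found in these 5 windows. The other 4 windows held 1 or 2 NF-Y boxes and 1 GC box each. Enzymes with higher means in Runx1-KO held such boxes too. NF-Y and GC boxes numbered 5 and 2 for Mvk, 3 and 2 for Msmo1, 3 and 3 for Hsd17b7, and 2 and 1 for Mvd. Fdps, Fdft1 and Sqle had no promoter window here. Promoters were on hand for 30 of the 38 genes, in 39 windows, of which 18 windows belonged to 15 sterol enzymes. An NF-Y box was present in 14 of the 18 sterol enzyme windows (77.8%), against 33.8% of all 32851 promoter windows of this length and 35.3% of the 11880 windows of genes above background on 3 or more arrays. A GC box was present in 15 of the 18 (83.3%), against 32.7% of all windows and 55.5% of those of genes above background. The sterol element as spelled was present in 1 of the 18 (5.56%), against 1.05% of all windows and 1.01% of those of genes above background, and the E-box CACGTG in 3 of the 18 (16.7%), against 6.02% of all windows and 8.31% of those of genes above background. A match is only these letters in this window, and the lack of one says nothing of whether SREBP binds.

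Levels are given as deposited probe set intensities, which compare 1 probe set across arrays and not 1 gene with another. A difference is the mean log2 level in Runx1-KO less that in Control, given with limma's moderated standard error, and adjusted p-values are limma's with Benjamini-Hochberg adjustment over all 18194 genes. Median intensity was 24.4 to 26.0 per array. The background limit of an array, the highest of 27 bacterial spike-in probe sets, was 14.1 to 22.5, and 57.4% to 64.7% of genes lay above it. Rank correlations between arrays were 0.950 to 0.965 within Runx1-KO, 0.964 to 0.972 within Control and 0.949 to 0.963 between the groups. Runx1 itself had intensities of 1128, 1573 and 1630 where the label was Runx1-KO, and of 680, 1022 and 850 where it was Control. It was thus 1.70-fold higher where it was labelled deleted (exact permutation p = 0.1, two-sided, the smallest that 3 against 3 allows; limma adjusted p = 0.322). Where the Runx1 probes lie relative to the excised part is not known here, so this value does not check the labels, and every direction below is that of the arrays as labelled.

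None of the 35 measured genes passed an adjusted p of 0.05, beside 16 of 18194 genes over the whole array (0.0879%). At an unadjusted limma p under 0.05, 4 were lower in Runx1-KO (Sqle, Fdps, Nsdhl and Ebp, all sterol enzymes) and 0 were higher, beside 7.01% and 5.62% of all genes. Groups that did not overlap, with every Runx1-KO array below every Control array, were seen for 9 genes, beside 11.7% of all genes and 1824 of the 11425 genes above background on at least 3 arrays. Non-overlap in the other direction was seen for 1 gene, beside 9.17% of all genes and 1120 of those 11425. Over all 35 the median difference was -0.07, with 20 lower and 15 higher, beside a median of -0.01 and 50.8% lower over all genes. Among the 11425 genes above background on 3 or more arrays the median was -0.05, with 55.4% lower. The 32 measured genes of the set that were among these had a median of -0.08. The differences were unequal among roles: the median was -0.43 over the sterol enzymes, 0.01 over the regulators, -0.15 over the transport genes, 0.38 over the LXR genes and 0.06 over the fatty acid enzymes (0.23 over the 4 of these above background on 3 or more arrays). Each of these role medians moved by over 1.5 times when some single array was left out, with values given below.

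**Figure D1:**
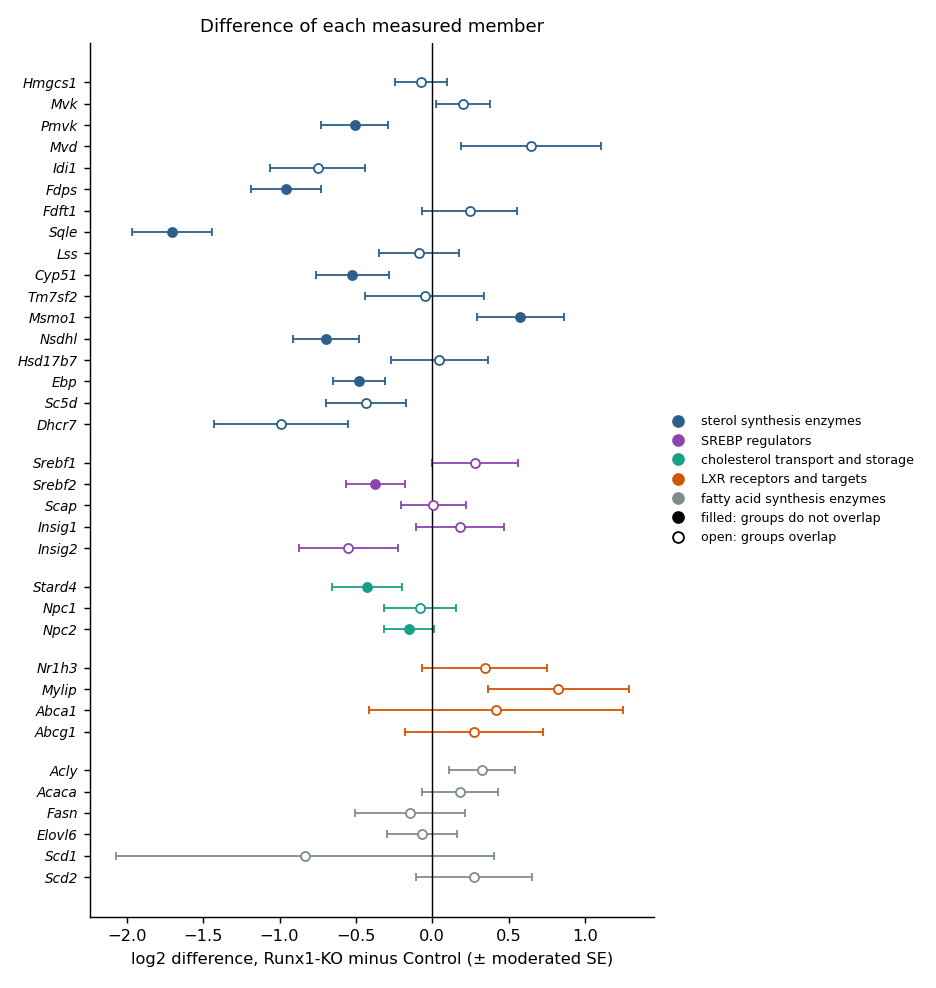
Log2 difference (Runx1-KO minus Control, x axis) of each of the 35 measured genes, grouped by role and with bars for limma's moderated standard error (3 arrays per group). Filled points mark genes whose groups do not overlap: 9 of these lie left of 0, led by Sqle at -1.70, and 1, Msmo1, lies right of it; Elovl6, Scd1 and Nr1h3 were above background on 0, 1 and 2 of the 6 arrays.

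Sterol synthesis begins with the mevalonate steps in the cytosol. Hmgcs1, the synthase that makes HMG-CoA, gave 552, 574 and 547 in Runx1-KO and 545, 614 and 602 in Control, which overlap (difference -0.07 ± 0.17, adjusted p = 0.888). Its other probe sets did not all give this value: a dimmer one read 36.8, 82.7 and 61.7 against 117, 141 and 113, without overlap and lower by 1.10 on the log2 scale. Of the 4 Hmgcs1 probe sets above background all were lower in Runx1-KO, by 0.07 to 1.10, and 2 were without overlap.

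Mevalonate is then phosphorylated. Mvk, mevalonate kinase, gave 61.1, 57.7 and 58.6 in Runx1-KO and 50.7, 46.4 and 57.9 in Control, a difference of 0.20 ± 0.18 with Control 3 between the Runx1-KO arrays. Pmvk, which adds the next phosphate, gave 177, 243 and 161 against 283, 258 and 273. All 3 Runx1-KO arrays were below all Controls for Pmvk, with Runx1-KO 2 close to them (difference -0.51 ± 0.22, adjusted p = 0.406). Mvd, the decarboxylase that follows, was dim, at 23.7, 72.1 and 27.0 against 28.2, 23.1 and 18.4. Runx1-KO 2 alone was far above the rest for Mvd, with overlap between the groups (difference 0.65 ± 0.46). Control 3 was not above background, and with its limit in place of its value the fold was 1.47. Without Runx1-KO 2 the Mvd difference was 0.14, and the other two Runx1-KO arrays lay within the Control range.

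Isoprenoid units are joined next. Idi1, the isomerase that interconverts the isoprenoid units, gave 702, 345 and 390 in Runx1-KO and 696, 884 and 732 in Control. Runx1-KO 1 lay within the Control range and the other two Runx1-KO arrays were far below it (difference -0.75 ± 0.31, adjusted p = 0.397). Its other probe set had the same pattern, at 416, 124 and 235 against 373, 461 and 409. Fdps, which makes farnesyl diphosphate, the branch point to sterols, dolichol and prenylated proteins, gave 114, 123 and 102 in Runx1-KO and 168, 247 and 253 in Control. All 3 Runx1-KO arrays were lower, and the difference of -0.96 ± 0.23 was 1.94-fold (limma adjusted p = 0.226).

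The committed steps to sterols were read by Fdft1, Sqle and Lss. Fdft1, squalene synthase, had probe sets that disagreed. Its brightest, whose type (x_at) can take up related transcripts, gave 299, 187 and 138 in Runx1-KO and 182, 158 and 160 in Control, with a difference of 0.25 ± 0.31. A dimmer one gave 64.0, 59.8 and 41.8 against 78.8, 74.1 and 69.9, lower in all 3 Runx1-KO arrays by 0.45 on the log2 scale. No single direction can therefore be given for Fdft1. The probe sets used below for Hsd17b7 and Acly were also of the x_at type, so the same caution holds for their values.

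Sqle, squalene epoxidase, a rate-limiting oxygen-using step, differed most among the genes above background. It gave 27.2, 27.2 and 24.1 in Runx1-KO and 66.2, 118 and 78.6 in Control. The 3 Runx1-KO values lay within a narrow range just above their background limits of 17.0, 19.6 and 18.6, and the lowest Control value was well above all of them. The difference was -1.70 ± 0.26, or 3.26-fold lower (limma adjusted p = 0.132), and Sqle ranked 69 of 18194 genes by p. Over the alternative settings its adjusted p ranged from 0.0474 to 0.364 and its difference from -1.91 to -1.27. The 1 setting under 0.05 was limma's trend and robust fitting. Lss, which closes the ring to lanosterol, gave 150, 82.2 and 125 against 123, 115 and 130, with overlap and a difference of -0.09 ± 0.26.

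Lanosterol is trimmed to cholesterol by demethylation, reduction and isomerisation. Cyp51, the lanosterol demethylase, gave 176, 149 and 184 in Runx1-KO and 205, 318 and 219 in Control, lower in all 3 Runx1-KO arrays (difference -0.52 ± 0.24, adjusted p = 0.424). Its dimmer probe sets overlapped between the groups, at -0.28 and 0.09. Tm7sf2, a sterol reductase, gave 57.3, 28.7 and 32.9 against 26.9, 58.6 and 38.1 (difference -0.05 ± 0.39), with the groups intermixed.

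Msmo1 and Nsdhl act in turn to remove the methyl groups at carbon C-4. Msmo1, the oxidase, gave 49.8, 59.8 and 52.8 in Runx1-KO and 42.6, 45.5 and 24.4 in Control. It was the only gene of the 35 with every Runx1-KO array above every Control (difference 0.58 ± 0.29, adjusted p = 0.456), but its other probe set overlapped and was lower, at -0.39. Nsdhl, the dehydrogenase, gave 57.1, 39.3 and 42.3 against 69.6, 81.2 and 71.5. All 3 Runx1-KO arrays were below Control for Nsdhl, by -0.70 ± 0.22 (limma adjusted p = 0.304). Hsd17b7, the ketosteroid reductase of the same complex, gave 122, 64.4 and 63.4 against 71.2, 67.5 and 93.8, a difference of 0.05 ± 0.32 in which Runx1-KO 1 was above all others.

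The closing steps move and reduce double bonds. Ebp, the sterol isomerase, gave 311, 313 and 320 in Runx1-KO and 403, 479 and 437 in Control. The Runx1-KO arrays were close together and all below Control (difference -0.48 ± 0.17, limma adjusted p = 0.345). Sc5d, the desaturase, gave 136, 152 and 95.4 against 139, 206 and 169, where only Runx1-KO 2 was above the lowest Control (difference -0.43 ± 0.26, adjusted p = 0.539). Dhcr7, the reductase that completes cholesterol, gave 113, 61.3 and 47.4 against 84.6, 174 and 175. For Dhcr7 the groups overlapped because Runx1-KO 1 was above Control 1, while the remaining Runx1-KO arrays were below every Control (difference -0.99 ± 0.44, adjusted p = 0.415).

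**Figure D2:**
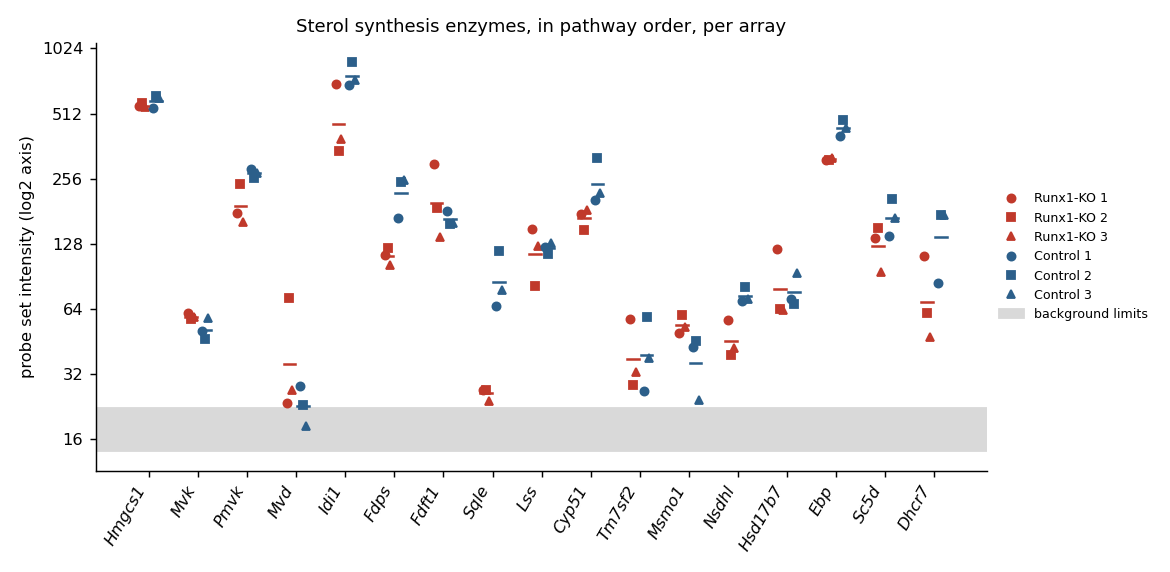
Intensity of the 17 measured sterol synthesis enzymes on each array (log2 axis), in pathway order from left to right, with short lines for the group means of log2 values and a grey band for the background limits of the arrays, 14.1 to 22.5. For Pmvk, Fdps, Sqle, Cyp51, Nsdhl and Ebp all 3 Runx1-KO arrays lie below all 3 Controls, and the Runx1-KO values of Sqle, 24.1 to 27.2, lie just above the band.

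Over the 17 measured sterol enzymes, 12 were lower and 5 higher in Runx1-KO, 6 were lower without overlap and 1 higher without overlap, with a median difference of -0.43. Over all genes the non-overlapping shares were 11.7% lower and 9.17% higher, and among the 11425 genes above background on 3 or more arrays they were 1824 and 1120 genes. Without Runx1-KO 3 that median was -0.23. The mean log2 level of the 17 was 6.91, 6.70 and 6.54 in Runx1-KO and 6.90, 7.19 and 7.03 in Control, or 6.72 ± 0.19 against 7.04 ± 0.15 (SD, n = 3). The groups thus met at Runx1-KO 1 and Control 1, and Runx1-KO 1 was below the other Controls. The remaining Runx1-KO arrays were below every Control. Control 2 was the highest array for 8 of the 17 and Runx1-KO 3 the lowest for 7. In bulk samples such as these, fewer cells of a type and less RNA per cell cannot be told apart.

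Levels of other marker genes also differed between the groups. Their counts without overlap are to be read against all genes, of which 11.7% were lower and 9.17% higher without overlap. Among the 11425 genes above background on 3 or more arrays, 1824 were lower and 1120 higher without overlap. Of 14 measured proliferation markers 13 were lower in Runx1-KO, 8 without overlap, with a median of -0.40 and summed intensities of 11078 to 15310 against 16979 to 18471. All 10 measured mature neutrophil markers were higher, 8 without overlap (median 1.22, sums of 16611 to 19282 against 9052 to 13874). Of 11 measured macrophage and monocyte markers 10 were lower, 6 without overlap (median -1.15, sums of 1907 to 2206 against 2588 to 5065), with C1qa below background on every array. All 9 measured erythroid markers were lower, 0 without overlap, with sums of 1012 to 1274 against 836 to 9286, where the highest sum was that of Control 1 alone and Hba-a1 was below background on all 6 arrays. Of the 13 measured markers of leukemic myeloid cells 10 were higher and 3 lower (median 0.24), with 1 higher without overlap. Of these markers 0 were below background on every array, and their sums were 22447 to 23217 against 18039 to 26092. B cell sums were 158 to 281 against 166 to 249, T and NK cell sums 79.8 to 117 against 97.3 to 193, and stromal and endothelial sums 284 to 415 against 243 to 543, with Pax5, Cd4, Ncr1, Col3a1, Cdh5 and Kdr below background on all 6 arrays. Of 7 measured T and NK cell markers 5 were lower (median -0.57), 3 of them without overlap. Those 3, Cd3e, Cd3g and Ncr1, were above background on 2, 2 and 0 of the 6 arrays. Of 6 measured B cell markers 5 were higher, 1 without overlap. Of 10 stromal and endothelial markers 6 were higher, 1 without overlap. The part of any of these marker lists in the sterol enzyme levels was not tested.

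**Figure D3:**
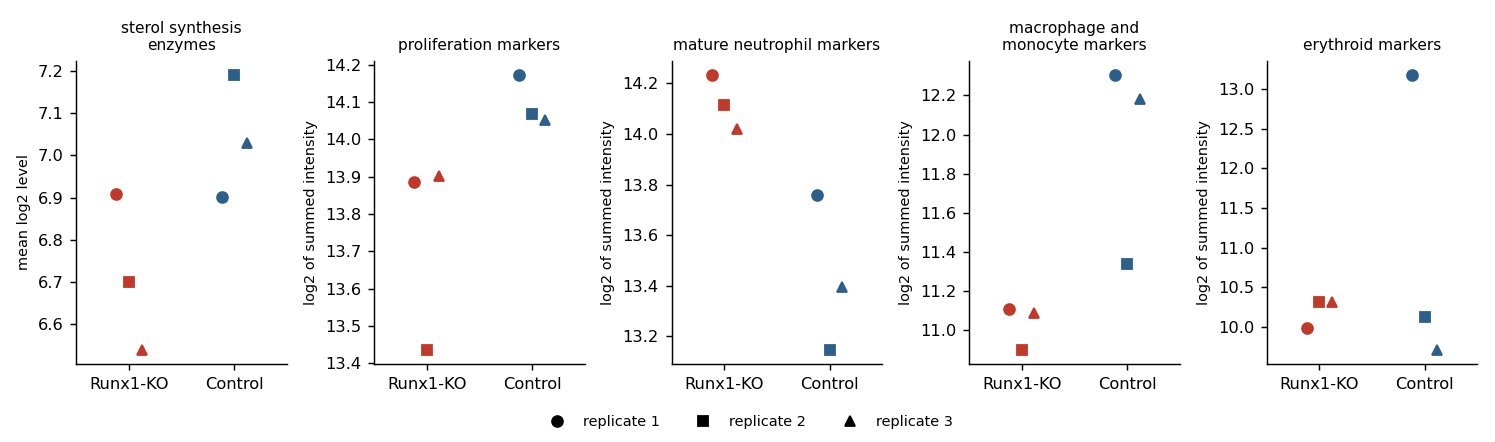
Mean log2 level of the 17 sterol enzymes per array (left) and log2 of the summed intensity of 4 marker lists per array (other panels), with the replicate numbers as symbols and a separate y axis, not starting at 0, in each panel. Runx1-KO 1 (6.91) and Control 1 (6.90) meet in the sterol panel, the groups are apart in the proliferation, neutrophil and macrophage panels, and Control 1 stands alone in the erythroid panel.

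The 5 regulators of SREBP did not share a direction. Srebf2, which makes SREBP-2, gave 98.5, 131 and 111 in Runx1-KO and 134, 159 and 145 in Control, lower in all 3 Runx1-KO arrays (difference -0.37 ± 0.19, adjusted p = 0.481). Its other probe set gave 60.3, 77.3 and 42.5 against 102, 108 and 109, again without overlap and lower by 0.87 on the log2 scale. Srebf1, which makes SREBP-1, gave 61.6, 113 and 66.6 against 63.6, 57.2 and 71.5, with Runx1-KO 2 above all others and a difference of 0.28 ± 0.28.

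Among the proteins that hold or carry SREBP, Scap, its escort, gave 263, 196 and 192 in Runx1-KO and 219, 236 and 188 in Control, a difference of 0.01 ± 0.21. Insig1, a retention protein that is itself an SREBP target, gave 799, 707 and 603 against 431, 828 and 656, with Control 1 the lowest array and a difference of 0.18 ± 0.29. Insig2, the other retention protein, gave 295, 189 and 157 against 411, 267 and 249. For Insig2 only Runx1-KO 1 reached into the Control range (difference -0.55 ± 0.33, adjusted p = 0.528), and all 3 of its probe sets were lower, by 0.36 to 0.55. The median of the 5 regulators, 0.01, was -0.14 without Runx1-KO 1.

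The 3 measured sterol transport genes were all lower in mean in Runx1-KO. Stard4, a cytosolic carrier of cholesterol and an SREBP target, gave 186, 153 and 134 in Runx1-KO and 190, 260 and 187 in Control. The groups did not overlap, but Runx1-KO 1 was within 1 intensity unit of Control 3 (difference -0.43 ± 0.23, adjusted p = 0.493). All 3 Stard4 probe sets were lower without overlap, by 0.43 to 0.88. Npc1, the lysosomal membrane exporter of cholesterol, gave 119, 188 and 134 against 171, 141 and 146, intermixed, with a difference of -0.08 ± 0.24. Npc2, its soluble partner in the lysosome, gave 2717, 2740 and 2738 against 3004, 3197 and 2916, without overlap but with a difference of only -0.15 ± 0.16. A dimmer Npc2 probe set gave 150, 162 and 121 against 204, 212 and 216, also without overlap and lower by 0.56 on the log2 scale. The median of the 3 was -0.15, and -0.27 without Runx1-KO 2.

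The 4 measured LXR genes had higher means in Runx1-KO, all with overlap, and for 3 of them the direction rested on single arrays. Nr1h3, the receptor LXRα, was dim, at 21.4, 18.8 and 13.2 in Runx1-KO and 7.65, 19.6 and 17.4 in Control, above background on 1 array of each group, so no fold is given. Mylip, an LXR target and ubiquitin ligase that lowers lipoprotein uptake, gave 110, 46.2 and 82.4 against 44.8, 25.6 and 65.9, with Runx1-KO 2 inside the Control range (difference 0.82 ± 0.46, adjusted p = 0.506). Abca1, a cholesterol exporter, gave 15.5, 35.9 and 62.1 against 52.3, 7.78 and 35.4, above background on 2 of 3 arrays in each group. Abcg1, its partner in export, gave 180, 414 and 225 against 315, 127 and 236. For both exporters arrays of 1 group differed from each other by more than the group means did, with differences of 0.42 ± 0.83 and 0.27 ± 0.45. Without Control 2 these were -0.40 and -0.09. Abca1 was at -0.05 without Runx1-KO 3, Abcg1 at -0.07 without Runx1-KO 2, and Nr1h3 at -0.08 without Control 1. The median of the 4, 0.38, was 0.19 without Control 2, and 0.71 without Control 1 or 0.60 without Control 3.

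Fatty acid enzymes had no shared direction either. Acly, which makes cytosolic acetyl-CoA, gave 1868, 1558 and 1370 in Runx1-KO and 1510, 1119 and 1197 in Control, with 2 Runx1-KO arrays above every Control (difference 0.33 ± 0.22, adjusted p = 0.575). Acaca, the carboxylase, gave 394, 231 and 318 against 265, 248 and 301 (difference 0.18 ± 0.25), while its dimmer probe set gave 91.4, 128 and 98.3 against 138, 164 and 201, lower without overlap. Fasn, fatty acid synthase, gave 168, 75.9 and 78.9 against 90.1, 125 and 122, where Runx1-KO 1 was the highest array and the other two were the lowest (difference -0.15 ± 0.36).

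Elovl6, which lengthens palmitate, was below the background limit on all 6 arrays by the probe set used. It gave 12.9, 16.04 and 14.4 in Runx1-KO and 15.3, 11.95 and 18.7 in Control. Its other probe sets were higher in Runx1-KO with overlap, by 0.81 and 0.48, and were above background on 1 and 0 of the 6 arrays. Scd1, a desaturase of fatty acids, gave 7.92, 6.66 and 8.29 against 108, 6.87 and 3.32. Control 1 was the only array with Scd1 above background, and it was also the array with the high erythroid sum. Any link between these values of 1 array was not tested. Scd2, the desaturase that was bright on every array, gave 647, 1457 and 1476 against 1109, 745 and 956, with Runx1-KO 1 the lowest (difference 0.27 ± 0.38), and its 3 probe sets were all higher, by 0.27 to 0.39. The median of the 6 fatty acid enzymes, 0.06, was 0.01 without Runx1-KO 1, 0.03 without Control 2, 0.29 without Control 1 and 0.17 without Control 3.

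**Figure D4:**
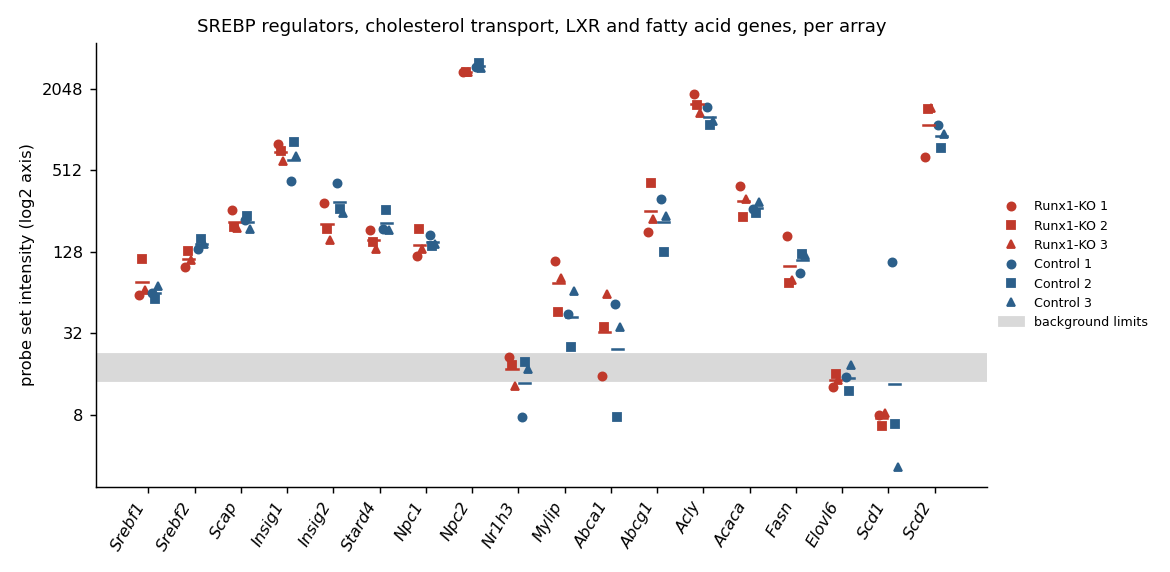
Intensity of the 18 measured genes outside sterol synthesis on each array (log2 axis), with short lines for group means of log2 values and a grey band for the background limits of the arrays. Srebf2, Stard4 and Npc2 are lower in all 3 Runx1-KO arrays, Elovl6 lies in or below the band, and Scd1 lies above it on Control 1, at 108, and below it on the other 5 arrays.

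How far 1 probe set stood for its gene was read from the 57 of 79 probe sets of these genes that were above background on 3 or more arrays. Of the 28 such probe sets of sterol enzymes 20 were lower and 8 higher in Runx1-KO, 9 lower without overlap and 2 higher without overlap, with a median of -0.34. Several of these read the same gene, and the same counts were not made over all probe sets. They therefore cannot be set against the shares of genes given above. Among 15 genes with more than 1 such probe set, 6 had all of them lower (Hmgcs1, Idi1, Insig2, Lss, Srebf2 and Stard4), 3 had all higher (Hsd17b7, Mvk and Scd2) and 6 had both directions (Acaca, Acly, Cyp51, Fdft1, Msmo1 and Npc2).

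**Figure D5:**
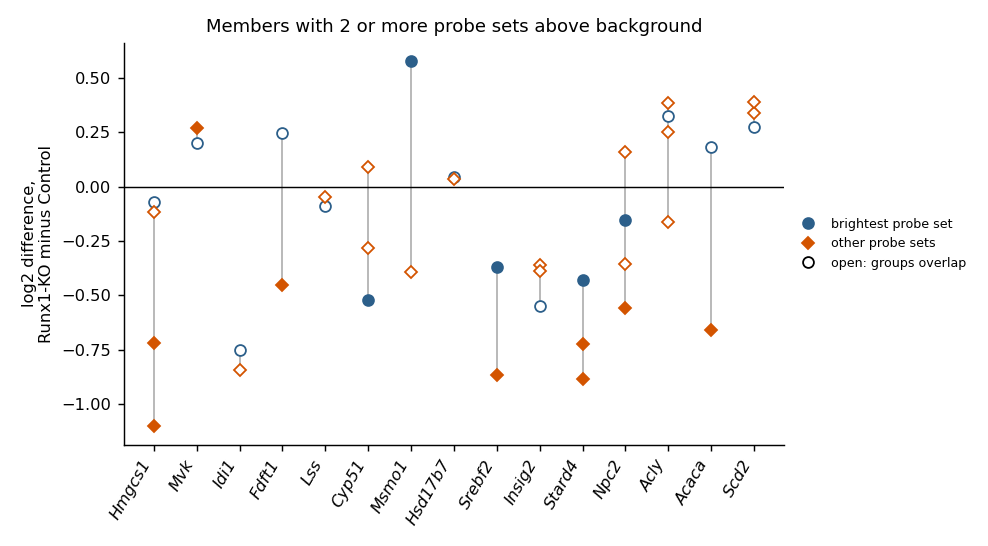
Log2 difference (Runx1-KO minus Control, y axis) of every probe set above background on 3 or more arrays, for the 15 genes with more than 1; circles are the brightest probe set, diamonds the others, and filled symbols groups that do not overlap. Lines cross 0 for 6 genes, and all 3 Stard4 and both Srebf2 probe sets are filled and below 0.

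Other genes of the pathway were taken from lists of known roles, and 0 of their genes passed an adjusted p of 0.05 by limma. Their counts are to be read against all genes, of which 11.7% were lower and 9.17% higher without overlap, and 7.01% were lower and 5.62% higher at an unadjusted p under 0.05. Of 16 measured genes among 18 other SREBP targets, 11 were lower and 5 higher (median -0.33), 7 of them lower without overlap, 4 lower and 0 higher at an unadjusted p under 0.05. The 2 of lowest p there were the desaturases of polyunsaturated fatty acids. Fads1 gave 65.7, 92.3 and 65.3 in Runx1-KO and 135, 119 and 186 in Control (difference -0.97 ± 0.26, adjusted p = 0.257). Fads2 gave 25.1, 19.4 and 24.1 against 115, 33.0 and 106, at least 3.24-fold lower because Runx1-KO 2 was not above background (adjusted p = 0.287). Both were below Control on every Runx1-KO array.

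SREBP processing and sterol sensing was covered by 10 of 12 genes, 5 higher and 5 lower (median 0.02), with 2 higher without overlap and 1 higher at an unadjusted p under 0.05. Sec24a, a COPII coat subunit of the vesicles that leave the endoplasmic reticulum, gave 295, 331 and 307 in Runx1-KO and 209, 198 and 219 in Control (difference 0.58 ± 0.17, adjusted p = 0.287), and Pgrmc1, a haem-binding membrane protein, was higher by 0.38 ± 0.20 without overlap. The branches that use farnesyl and geranylgeranyl groups were covered by 12 of 14 genes, 8 lower and 4 higher (median -0.19), 5 of them lower without overlap and 1 lower at an unadjusted p under 0.05. Icmt, which methylates prenylated proteins, gave 94.2, 82.5 and 92.0 against 133, 146 and 153, a separation of -0.68 ± 0.17 (adjusted p = 0.246), and Rabggtb, a subunit of the transferase that prenylates Rab proteins, was lower by 0.46 on the log2 scale without overlap.

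Cholesterol handling in lysosome and membrane was covered by 21 of 22 genes, 13 lower and 8 higher (median -0.11), with 5 lower and 3 higher without overlap. At an unadjusted p under 0.05 it had 2 in each direction. The lowest p was that of Gramd1c, higher without overlap by 2.72 ± 0.47 (limma adjusted p = 0.154). Gramd1c was above background on only 2 of 6 arrays, so the naming rule passed over it. Lipa, the lysosomal lipase that frees cholesterol from its esters, gave 334, 340 and 321 in Runx1-KO and 609, 447 and 487 in Control (difference -0.62 ± 0.19, adjusted p = 0.305), and Scarb2, a lysosomal membrane protein, gave 1381, 1080 and 1204 against 818, 657 and 929 (difference 0.62 ± 0.22, adjusted p = 0.339). Other LXR and RXR genes were measured for 13 of 16, with 10 lower and 3 higher (median -0.14), 4 lower without overlap, and 3 lower and 1 higher at an unadjusted p under 0.05. The 1 higher was Abcg5, and 1 of those lower, also without overlap, was Abcg8, both of them above background on 0 of 6 arrays. Cyp27a1, which makes an oxidised sterol that activates LXR, was at least 2.56-fold lower, above background on 2 of 3 Runx1-KO arrays (adjusted p = 0.226). Lpl, lipoprotein lipase, which macrophages also make, gave 71.1, 77.6 and 149 against 872, 152 and 932, so Runx1-KO 3 and Control 2 nearly met (difference -2.41 ± 0.75, adjusted p = 0.305). Control 2 also had the lowest macrophage and monocyte sum of the Controls, 2588, and its part in the Lpl difference was not tested.

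Fatty acid oxidation was covered by 17 of 19 genes, 11 higher and 6 lower (median 0.14), with 1 higher without overlap and 0 in either direction at an unadjusted p under 0.05. Hadhb, a subunit of the mitochondrial trifunctional protein, was higher by 0.29 ± 0.17 without overlap, and Hadh, a dehydrogenase of the same cycle, by 0.33 ± 0.25 with overlap. Phospholipid and triglyceride synthesis was covered by all 23 genes, 16 higher and 7 lower (median 0.25), with 5 higher and 2 lower without overlap, and 3 higher and 2 lower at an unadjusted p under 0.05. Dgat2, which makes triglycerides, gave 299.5, 198 and 232 in Runx1-KO and 68.4, 90.1 and 61.4 in Control. Every Runx1-KO array was above every Control for Dgat2, and the means differed 3.31-fold (difference 1.73 ± 0.25, adjusted p = 0.112). Cds1, which makes CDP-diacylglycerol for phospholipids, gave 45.4, 18.3 and 40.5 against 67.6, 111 and 123, at least 2.95-fold lower because Runx1-KO 2 was not above background (adjusted p = 0.257).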

How the data were processed

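Total RNA of 6 leukemias, 3 in each group, was taken up on columns, and fragmented cDNA was given a biotin label, per the labels' protocols. The table deposited by the authors held a linear intensity for each of 45101 probe sets. The steps of summarising, background correction and normalization behind it are not given in the sources used here. Symbols came from the platform annotation: 34958 probe sets had 1 symbol, and those with several (932) or none (9211) were left out. The brightest of a gene's probe sets by mean log2 was used, which gave 18194 genes.

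Intensities, floored at 1, were taken to log2 and compared with limma 3.58.1 (lmFit, eBayes) under R 4.3.3. The test was two-sided, without covariates or a filter, and p-values were adjusted over the whole table by Benjamini-Hochberg, with a threshold of 0.05. The fit was tested on simulated data. A probe set was above background when brighter than the 27 spike-in probe sets of the bacterial genes dap, lys, phe, thr and trp on its array. Where an array of the dimmer group was not, a fold was given as at least the bright group's mean over the dim group's mean with the array's limit in place of the dim value.

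The genes and lists were chosen with earlier results of these data known. All 38 genes are named with the values measured. From each pathway list the text names those past an adjusted p of 0.05, or else the 2 of lowest p above background on at least 3 arrays. The labels do not pair the samples by replicate number. Correlations of same-numbered arrays' deviations from the group means were -0.0004, -0.15 and 0.077, which cannot settle whether such arrays shared a batch. Alternatives changed normalization, offset, filter, probe set rule, variance model, weights, threshold, replicate block and the arrays used. The mean over probe sets above background was added after the data were seen. The number of arrays limits the precision. Promoters came from RefSeq on GRCm38.p6, matched by symbol.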

Additional observations from a re-analysis of the deposited data

How the results depend on the processing

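No member passed an adjusted p of 0.05 under any setting run except limma's trend and robust fitting, where 1 did (Sqle, adjusted p = 0.0474). With the replicate number as a replicate block, 0 members and 0 of all genes passed. The labels give no pairing by these numbers, so this says nothing of the size of an effect. Over all genes, 16 passed as reported, 104 with trend and robust fitting, 71 with array weights, 64 with an offset of 16, 34 among genes above background, 46 with the mean of probe sets above background, 3 with the probe set of highest variance, 2 to 3 with 1 array left out and 0 without both arrays numbered 1.

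The median of the sterol enzymes was -0.24 with the mean of all probe sets, and -0.48 to -0.23 with 1 array left out. The median of the regulators was 0.18 with the mean of all probe sets, 0.18 with the probe set of highest variance, -0.17 without both arrays numbered 1, and -0.14 to 0.087 with 1 array left out. The median of all members was -0.38 with the probe set of highest variance and -0.17 without both arrays numbered 1. With 1 array left out, the median was -0.27 to -0.13 for the transport genes, 0.19 to 0.71 for the LXR genes and 0.0077 to 0.29 for the fatty acid enzymes. The cause of these shifts was not tested. Sqle, Fdps, Idi1, Nsdhl, Ebp, Pmvk, Cyp51, Sc5d, Dhcr7, Hmgcs1, Srebf2, Insig2 and Stard4 were lower in Runx1-KO in all 18 settings, and Mvk, Mvd, Srebf1, Mylip, Acly and Scd2 higher in all 18. Much of this was fixed in advance, so the 18 are not separate checks. Trend and robust fitting, the replicate block and the background filter leave each difference as it is. Probe set rules change nothing for a gene with 1 probe set. Where groups do not overlap, leaving out 1 array cannot change the direction.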
